A study of Drosophila melanogaster with 48 samples.

Results

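In S2 cells, 1142 of the 3750 Rrp40 peaks shared no base with any of the 3282 Rrp6 peaks of the same cells. These 1142 regions are the Rrp40 peaks without Rrp6 described here. They were chosen by the positions of the peaks in the 2 deposited S2 lists, a minimum overlap of 1 bp counting as Rrp6, so the absence of Rrp6 and the distance to it are descriptions and carry no test. They made up 30.5% of the Rrp40 list, with an exact 95% binomial interval of 29.0 to 32.0%. The other 2608 Rrp40 peaks (69.5%) overlapped Rrp6 and serve for comparison. The rule compares where 2 lists hold peaks. It does not measure how much Rrp6 was bound, and a region below the authors' threshold for Rrp6 counts as one without it.

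The RNA exosome is a barrel of core subunits that threads RNA from its 3′ end into a catalytic subunit. Rrp40 is one of the RNA-binding proteins of the cap over that barrel and belongs to the core complex of nucleus and cytoplasm. Rrp6 is a distributive exonuclease that joins the core in the nucleus, where it trims and degrades nuclear transcripts. Su(Hw) is a zinc-finger protein that binds DNA directly and forms chromatin insulators, which separate genes from the regulatory elements of their neighbours.

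S2 and S3 are Drosophila cell lines of late embryonic origin, and the labels of the ChIP groups differ by cell line, antibody and number of samples. Cells, for which the labels list no dsRNA, were fixed in 1% formaldehyde for 10 min, and chromatin was precipitated with rabbit antibodies against Rrp6 or Rrp40 or with a guinea pig antibody against Su(Hw). Each Rrp6 or Rrp40 list joins 2 technical replicates of 1 cell line, each Su(Hw) list rests on 1 sample, and each line has 2 input samples. The study also sequenced RNA after dsRNA treatment, which is not analysed here. No list has a biological replicate, so no difference below could be tested against a spread between samples. The binomial intervals cover counting error only, and peaks of 1 list share its library and depth.

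The lists differ in breadth. In S2 cells the Rrp40 peaks had a median width of 2322.5 bp and covered 9.60 Mb, whereas the Rrp6 peaks had a median of 2024 bp and covered 6.61 Mb. In S3 cells the order was the opposite, with 2831 Rrp40 peaks of median 2056 bp over 6.15 Mb and 2746 Rrp6 peaks of median 2225 bp over 6.74 Mb. Of the Rrp6 S2 peaks, 81.8% (2686 of 3282) overlapped an Rrp40 S2 peak. The S2 Rrp40 list is therefore the longest and widest of the 4 exosome lists, and the part played by its breadth in the number of Rrp40 peaks without Rrp6 was not tested.

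Rrp40 peaks without Rrp6 were narrower than those with it. Their median width was 2159.5 bp, with quartiles of 2002 and 2446 bp and a range of 360 to 5801 bp. Rrp40 peaks with Rrp6 had a median of 2407 bp, quartiles of 2146 and 2910 bp and a maximum of 12515 bp. The middle of both distributions lay in the same range, and 48.9% of the peaks without Rrp6 and 37.6% of those with it measured from 1900 to below 2300 bp. The groups differed in the tails. Widths under 1900 bp made up 15.1% (173) of the peaks without Rrp6 and 2.95% (77) of those with it, and widths of 3000 bp or more made up 8.67% (99) and 22.6% (590). A wider interval has more room to touch another peak, so width is not independent of the rule.

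**Figure D1:**
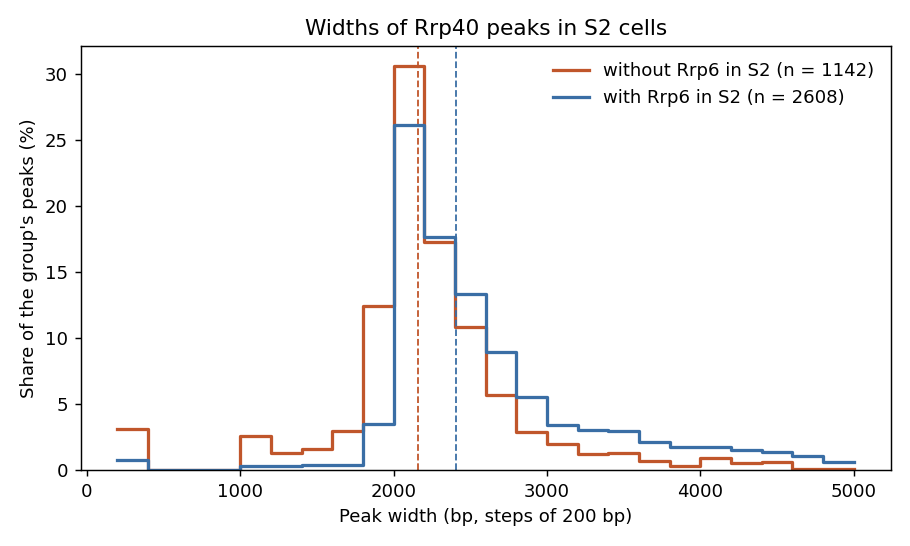
Share of peaks (y axis, in percent of each group) by peak width in steps of 200 bp (x axis) for 1142 Rrp40 S2 peaks without Rrp6 and 2608 with it. Dashed lines mark the medians, 2159.5 and 2407 bp, and peaks of 5000 bp or more are not drawn. The peaks without Rrp6 hold more of the narrow widths and fewer of the wide ones.

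A separate class of very narrow peaks had 1 fixed width. All 57 Rrp40 S2 peaks under 1000 bp were exactly 360 bp wide, and 36 of them lacked Rrp6. The same feature marks the other lists, each with its own narrowest width (380 bp in 46 Rrp40 S3 peaks, 300 bp in 226 Rrp6 S2 peaks and 290 bp in 70 Rrp6 S3 peaks) and no other width below 1000 bp. Whether such a width was measured or is a default of the peak caller is not known, so it may not be the size of the bound site. Of the 36 fixed-width regions without Rrp6, 1 overlapped an Rrp40 S3 peak, 1 an Rrp6 S3 peak and 8 a Su(Hw) S2 peak. Of the 21 with Rrp6, these numbers were 1, 7 and 7.

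The share of Rrp40 peaks that lacked Rrp6 went down with width. In 5 classes of nearly equal size, it was 54.8% (411 of 750) from 360 to 2065 bp and 30.1% (226 of 751) from 2066 to 2214 bp. It was 29.6% (222 of 749) from 2215 to 2449 bp, 22.9% (172 of 752) from 2450 to 2931 bp and 14.8% (111 of 748) from 2932 bp up.

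The 5 widest regions without Rrp6, on the dm3 build, lay on 4 chromosome arms. The widest, chr2R:16527047-16532847, spanned 5801 bp, lay 14.9 kb from the nearest Rrp6 S2 peak and overlapped no exosome or Su(Hw) peak of S3 cells. The next were chr3L:15555138-15560806 (5669 bp, 11.9 kb from Rrp6), chr2L:10330421-10335980 (5560 bp, 1.48 kb) and chrX:11240958-11246488 (5531 bp, 5.55 kb). The fifth of them was chr2R:14043718-14049022 (5305 bp, 10.7 kb), which also held Su(Hw) in both cell lines. All of these but the widest overlapped both an Rrp40 and an Rrp6 peak in S3 cells.

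Most Rrp40 peaks without Rrp6 lay kilobases away from Rrp6. The gap, counted as the bases between the edges of a region and of the nearest Rrp6 S2 peak, had a median of 5.90 kb, quartiles of 2149.75 and 16093 bp and a range of 22 to 764613 bp. An Rrp6 peak lay within 250 bp of 23 regions (2.01%), within 1000 bp of 140 (12.3%), within 5000 bp of 530 (46.4%) and within 10000 bp of 720 (63.0%). Another 86 (7.53%) lay over 50 kb from Rrp6. The nearest other Rrp40 S2 peak was at a median of 4.03 kb, and at 3.55 kb for the Rrp40 peaks with Rrp6. For 984 of the 1142 regions (86.2%) the nearest Rrp6 peak itself overlapped an Rrp40 peak, so the neighbour was usually a site with both proteins. The share is close to that of all Rrp6 S2 peaks, 81.8%.

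**Figure D2:**
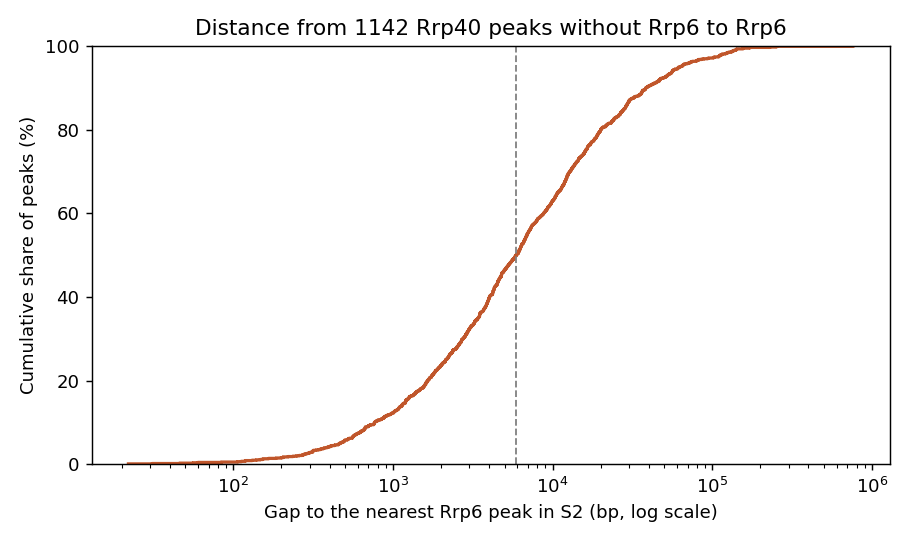
Cumulative share (y axis, in percent) of the 1142 Rrp40 S2 peaks without Rrp6 that lie within a given gap of the nearest Rrp6 S2 peak (x axis, bases on a log scale). The dashed line marks the median of 5902 bp, and 12.3% of regions lie within 1000 bp.

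The 5 regions nearest to Rrp6 without touching it, among them chr2R:5761692-5763663, chr2R:15350225-15352031 and chr3L:9673328-9675212, had gaps of 22, 31, 46, 56 and 60 bp. The 5 Rrp40 peaks that shared the fewest bases with Rrp6, among them chrX:2147278-2149121 and chr3L:6961145-6963541, shared 17, 22, 49, 72 and 73 bp. Of the first 5, 1 overlapped an Rrp40 S3 peak and 0 an Rrp6 S3 peak, and of the second 5 these numbers were 1 and 3. Cases as close as these were few on both sides. A gap of at most 100 bp was found at 6 of the 1142 regions. Rrp6 covered a median of 87.4% of an Rrp40 peak that had it (quartiles of 75.8 and 94.6%), and under 10% in 11 of the 2608. Wider limits moved more peaks. Counting Rrp6 within 1000 bp left 1002 regions. Counting it only where it covered the larger part of the Rrp40 peak gave 1322.

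Farthest from Rrp6 was chr3LHet:1395618-1398205, a heterochromatic region 764.6 kb from the nearest Rrp6 peak of its sequence, which overlapped an Rrp40 S3 peak and a Su(Hw) S2 peak. The next 4 all lay on the X, at chrX:21500188-21502654 (254.3 kb from Rrp6), chrX:14473433-14475574 (249.5 kb), chrX:21475242-21477947 (229.4 kb) and chrX:12096743-12098804 (172.7 kb). Of these 4, 3 overlapped an Rrp40 S3 peak and 1 also an Rrp6 S3 peak.

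Rrp40 peaks without Rrp6 were unevenly spread over the chromosomes. Chromosome arm 3R held 351 of them (30.7% of all), 2R 223 (19.5%), X 212 (18.6%), 3L 183 (16.0%) and 2L 145 (12.7%). Of the Rrp40 peaks with Rrp6, 22.7% lay on 3R and 12.9% on the X. Read as a share of each arm's Rrp40 peaks, 38.7% of the X (interval 34.6 to 42.9%) and 37.2% of 3R (34.1 to 40.4%) lacked Rrp6. The shares were 28.6% on 2R (25.5 to 31.9%), 24.8% on 3L (21.7 to 28.0%) and 22.4% on 2L (19.2 to 25.8%). The intervals of the X and 3R overlap each other and lie above those of the other 3 arms, which also overlap one another.

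The higher share on 3R and the X was present in each width class, while single stretches of the arms overlapped. In the narrowest class 66.2% of the Rrp40 peaks on 3R and X together lacked Rrp6, against 48.6% on 2L, 2R and 3L together, and in the widest class these shares were 20.6 and 10.4%. The 2 groups of arms were formed after their shares had been seen. Over stretches of 2 Mb with at least 20 Rrp40 peaks, the median share without Rrp6 was 39.4% on 3R (14 stretches, 20 to 47.6%) and 39.7% on the X (11 stretches, 22.2 to 53.7%). It was 28.9% on 2R (20.7 to 38.1%), 25.6% on 3L (18.8 to 31.4%) and 21.7% on 2L (10 to 32%), so some stretches of 3R and X lay no higher than stretches of the other arms. Regions without Rrp6 on the X had the longest median gap to Rrp6 of the 5 arms, 8.91 kb. It was 6.13 kb on 3R, 5.08 kb on 2R, 4.32 kb on 3L and 3.90 kb on 2L. The X also held the fewest Rrp6 S2 peaks of the 5 arms, 416 against 663 to 731, and the part of this in its longer gap was not tested.

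The balance of the 2 lists differed by arm in the same way. On 3R the S2 lists held 944 Rrp40 and 675 Rrp6 peaks, a ratio of 1.40, and on the X 548 and 416, a ratio of 1.32. On 2L the numbers were 648 and 663, a ratio of 0.977. The reverse class, Rrp6 S2 peaks that met no Rrp40 S2 peak, was scarcest on 3R (69 of 675, 10.2%) and made up 16.4 to 21.3% of the other 4 arms' Rrp6 peaks.

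S3 cells did not show the excess on 3R. There, 535 of the 2831 Rrp40 peaks (18.9%) lacked an Rrp6 S3 peak, and on 3R these were 119 of 722 (16.5%, interval 13.8 to 19.4%), against 20.9% on 2L and 21.5% on 3L, whose intervals overlap that of 3R. Arm 2R had the lowest share in S3, 12.9% (79 of 613). The X was highest in S3 too, at 23.7% (93 of 392), though its interval of 19.6 to 28.3% overlaps those of 2L and 3L. The ratio of Rrp40 to Rrp6 peaks on 3R was 1.01 in S3 cells. The 3R pattern was therefore seen in the S2 lists and not in the S3 lists. With 1 pooled list per protein and line, the cell line and the library cannot be told apart.

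**Figure D3:**
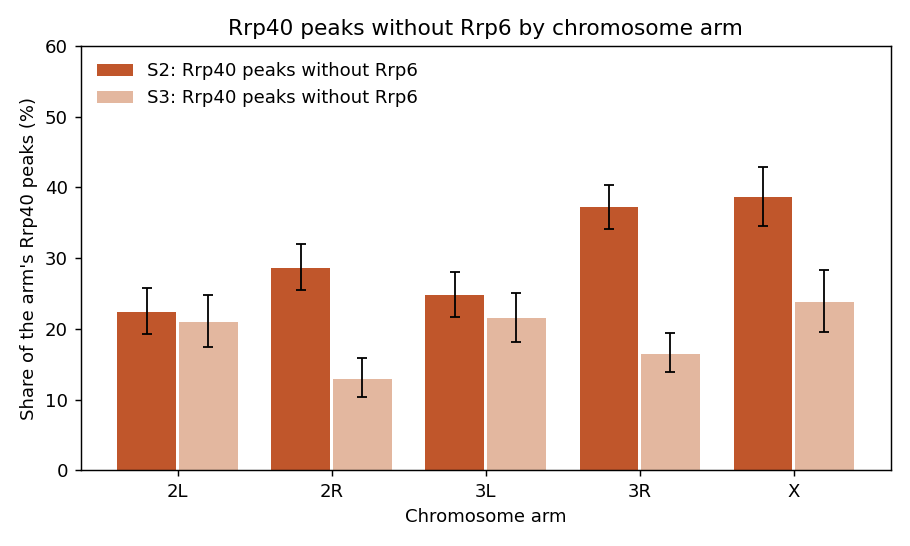
Share of Rrp40 peaks (y axis, in percent of the arm's Rrp40 peaks) that overlap no Rrp6 peak of the same cell line, by chromosome arm (x axis), in S2 and S3 cells. Lines on the bars are exact 95% binomial intervals. In S2 cells 3R and X stand at 37.2 and 38.7%, while in S3 cells 3R stands at 16.5%.

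Outside these 5 arms the lists were thin. Chromosome 4 had 11 regions without Rrp6 among 38 Rrp40 peaks (28.9%), the heterochromatic sequences 12 of 28 (42.9%), the unplaced sequence U 5 of 24 (20.8%), and the mitochondrial genome 0 of 2. All 4 Rrp40 peaks of the heterochromatic X sequence lacked Rrp6. Of the 11 regions on chromosome 4, 1 overlapped an Rrp40 S3 peak and 2 an Rrp6 S3 peak. The S3 lists held only 12 Rrp40 and 12 Rrp6 peaks on that chromosome.

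Along the chromosomes, the regions without Rrp6 were interspersed with the others. They formed 790 runs of neighbouring Rrp40 peaks, of which 548 (69.4%) held a single region. In 26 runs 4 or more followed each other, and the longest held 5. After a region without Rrp6 the next Rrp40 peak lacked Rrp6 in 30.9% of cases (352 of 1138), next to 30.5% over the whole list.

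S3 cells gave measurements that the rule did not use. Of the 1142 regions, 557 (48.8%, interval 45.8 to 51.7%) overlapped an Rrp40 peak in S3 cells, against 69.8% of all Rrp40 S2 peaks and 79.03% (2061 of 2608) of those with Rrp6. An Rrp6 S3 peak was present at 469 (41.1%, interval 38.2 to 44.0%), against 66.5% of all Rrp40 S2 peaks and 77.7% (2026) of those with Rrp6. Hence the regions overlapped S3 peaks of both proteins less often than the Rrp40 peaks with Rrp6 did, by margins wider than the intervals. Only the Rrp40 shares measure recurrence. For Rrp6, the rule picked the regions for lacking it in S2 and the other peaks for having it. A large part of the regions nevertheless had Rrp6 in the other cell line.

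Sorted by both S3 lists, the regions without Rrp6 fell into 4 classes. In S3 cells 383 (33.5%) had Rrp40 and Rrp6, 174 (15.2%) Rrp40 alone, 86 (7.53%) Rrp6 alone and 499 (43.7%) neither. For Rrp40 peaks with Rrp6 in S2 the shares were 69.4, 9.66, 8.32 and 12.7%. Among the 557 regions that kept Rrp40 in S3, Rrp6 was present at 68.8% (interval 64.7 to 72.6%), and among the 2061 such peaks with Rrp6 in S2 at 87.8% (86.3 to 89.2%). By overlap with the S2 region, Rrp40 without Rrp6 was thus found in both lines at 174 regions. Another 383 had Rrp40 in both lines and lacked Rrp6 in the S2 list alone. An Rrp6 S3 peak that met the Rrp40 S3 peak only outside the region counted as absent.

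**Figure D4:**
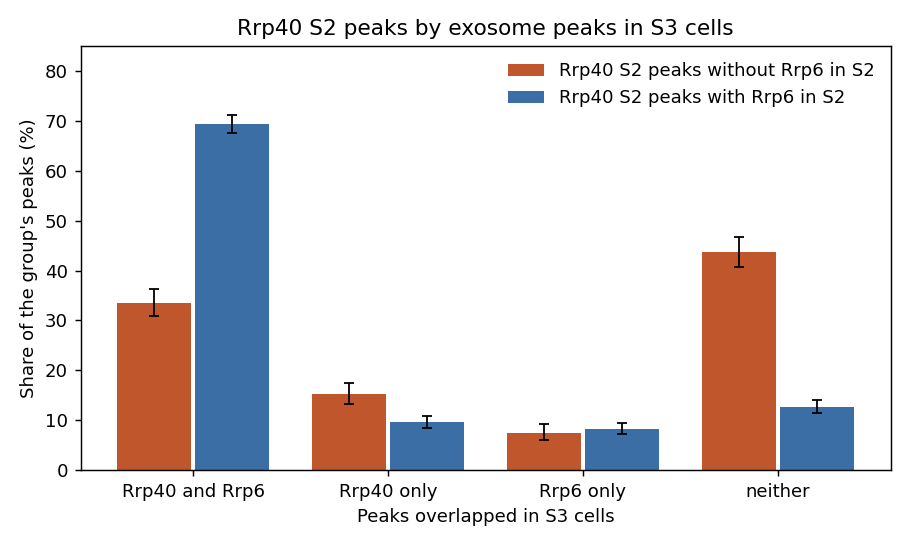
Share of Rrp40 S2 peaks (y axis, in percent of each group) by the exosome peaks they overlap in S3 cells (x axis), for 1142 peaks without and 2608 with Rrp6 in S2. Lines on the bars are exact 95% binomial intervals. Of the peaks without Rrp6, 43.7% have neither protein in S3 and 33.5% have both, against 12.7 and 69.4% of the peaks with Rrp6.

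The 174 regions with Rrp40 and no Rrp6 in both lines had a median width of 2228 bp and a median gap to Rrp6 in S2 of 5.81 kb. The 383 that had both proteins in S3 were alike on both counts, at 2243 bp and 5.48 kb. The 499 with neither protein in S3 were narrower, with a median of 2050 bp, at a gap of 6.20 kb. Of the 174, the 5 widest were chr3R:23096932-23101832 (4901 bp), chr3R:14568294-14572886 (4593 bp), chr3R:20879185-20883713 (4529 bp), chr3L:12110272-12114105 (3834 bp) and chr2R:3817286-3820923 (3638 bp). They lay 6.08, 3.36, 2.34, 0.106 and 4.75 kb from the nearest Rrp6 S2 peak, and none of these 5 overlapped a Su(Hw) peak.

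From the side of the S3 lists, of the 2746 Rrp6 S3 peaks 2126 (77.4%) overlapped an Rrp6 S2 peak and 620 did not. Of those 620, 444 (71.6%, interval 67.9 to 75.1%) lay on an Rrp40 S2 peak without Rrp6, 10 on an Rrp40 S2 peak with Rrp6 only, and 166 (26.8%) on no Rrp40 S2 peak. The split between the first 2 numbers follows from the rule, since both these peaks and the regions were picked for lacking Rrp6 in S2. On any Rrp40 S2 peak lay 454 of the 620, a lower share than the 2472 of all 2746 Rrp6 S3 peaks. As a share of the whole S3 lists, 470 Rrp6 peaks (17.1%) and 566 Rrp40 peaks (19.99%) touched a region without Rrp6. The S3 counterpart class, Rrp40 S3 peaks without Rrp6 S3, met such a region in 182 of 535 cases (34.0%), and Rrp40 S3 peaks with Rrp6 S3 in 384 of 2296 (16.7%).

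Where the lists met, the peaks coincided closely. The centres of the regions without Rrp6 and of the Rrp40 S3 peaks on them were a median of 90.5 bp apart (quartiles of 36.5 and 207.5 bp, n = 557). For Rrp6 S3 peaks the median was 135.5 bp (quartiles of 55 and 313 bp, n = 469). Rrp40 peaks with Rrp6 in S2 gave 82 and 121 bp for the same 2 lists, and 100 bp to the Rrp6 S2 peak itself. Near misses were a minority. Of the regions with no Rrp6 S3 peak, 11.8% (79) had one within 1000 bp, and of those with no Rrp40 S3 peak 12.2% (71) had one. Both percents leave out 4 regions on sequences where the S3 list holds no peak.

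Width moved with overlap in S3, and the 2 groups differed in each width class. In the narrowest class, 29.9% of the regions without Rrp6 and 49.9% of the peaks with it overlapped Rrp40 in S3. In the 4 wider classes the shares ran from 55.9 to 61.6% without Rrp6 and from 77.4 to 87.1% with it. For Rrp6 S3 the narrowest class gave 25.3 and 53.7%, and the others 45.0 to 58.6% and 77.8 to 84.5%. The peaks without Rrp6 lay below those with it in all 5 classes for both proteins, by margins smaller than over all widths together.

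**Figure D5:**
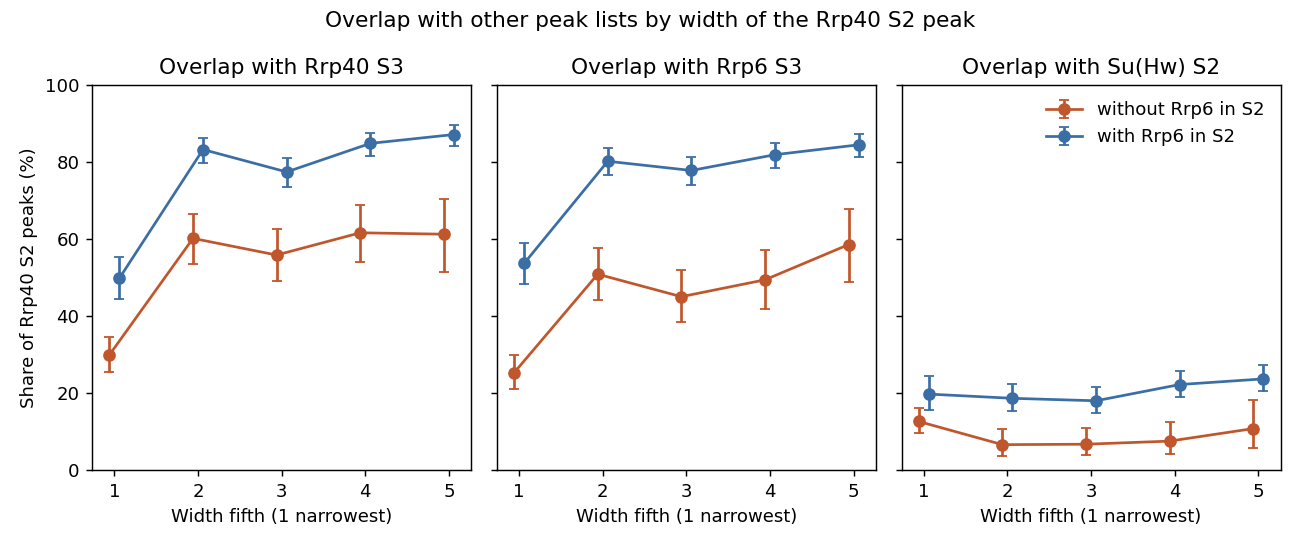
Share of Rrp40 S2 peaks (y axis, in percent) that overlap an Rrp40 S3, Rrp6 S3 or Su(Hw) S2 peak (3 panels), by width class of the Rrp40 S2 peak (x axis, 1 narrowest, 5 widest), for peaks without and with Rrp6 in S2. Points are shares and lines exact 95% binomial intervals. In each panel and class the peaks without Rrp6 lie below those with it, and the narrowest class has the lowest shares in both S3 panels.

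Overlap with S3 exosome peaks was lowest in the class over 50 kb from Rrp6, which included heterochromatic and unplaced sequences. Rrp40 S3 peaks were present at 47.1% of the 140 regions within 1 kb of Rrp6, 51.8% from 1 to 5 kb, 52.6% from 5 to 10 kb and 47.3% from 10 to 50 kb. Beyond 50 kb the share was 34.9% (30 of 86), with an interval of 24.9 to 45.9% that lies below that of 1 to 5 kb (46.7 to 56.9%) and overlaps the other 3. Rrp6 S3 peaks followed the same order of distances with 56 of 140 regions within 1 kb, then 43.1, 47.4, 39.9 and 24.4%. The interval beyond 50 kb, 15.8 to 34.9%, lies below those of 1 to 5 kb (38.1 to 48.2%) and 5 to 10 kb (40.1 to 54.7%) and overlaps those within 1 kb and from 10 to 50 kb. Some of the 86 regions lay on heterochromatic or unplaced sequences, on each of which an S3 exosome list held at most 4 peaks. The heterochromatic X sequence had 4 of them and 0 S3 exosome peaks, so these could not recur. The part of such sequences in the low shares beyond 50 kb was not tested. The S3 shares also varied by arm. Rrp40 recurred at 46.4 to 51.6% of the regions on each of the 5 arms. Rrp6 S3 was present at 48.4% on 2R and 46.4% on 3R, and at 39.2% on the X, 35.9% on 2L and 33.3% on 3L. The S3 lists themselves differed by arm, and of the 5 arms 2R alone held more Rrp6 than Rrp40 peaks in S3. Neither intervals nor shares for the peaks with Rrp6 were computed by arm. A trait of the arm's S3 list therefore cannot be told apart from one of the regions.

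Su(Hw) was scarcer at Rrp40 peaks without Rrp6. A Su(Hw) S2 peak overlapped 107 of the 1142 regions (9.37%, interval 7.74 to 11.2%), against 17.3% of all Rrp40 S2 peaks and 20.7% (540) of those with Rrp6. These 107 Su(Hw) peaks were 5.13% of the Su(Hw) S2 list. The difference was present in each width class, from 12.7 against 19.8% in the narrowest to 10.8 against 23.7% in the widest, where the intervals of the groups overlap in the narrowest class alone. On the X 4.25% of the regions (9 of 212) had Su(Hw), on 2L 6.90% (10 of 145), and on 2R, 3L and 3R 10.8 to 11.7%. The same shares by arm were not computed for the peaks with Rrp6, so a trait of the arm cannot be told apart from one of the regions. Su(Hw) S3 peaks showed no such difference between the peaks without and with Rrp6. They overlapped 91 of the regions (7.97%), against 8.37% of all Rrp40 S2 peaks and 8.55% of those with Rrp6.

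The Su(Hw) sites at the regions were more often shared by the 2 cell lines than those at Rrp40 peaks with Rrp6. Of the 107 regions with Su(Hw) in S2, 62 (57.9%, interval 48.0 to 67.4%) had it in S3 as well, against 159 of 540 (29.4%, 25.6 to 33.5%) of the Rrp40 peaks with Rrp6. Counted over Su(Hw) peaks, a different unit from these shares of Rrp40 peaks, 71.8% of all Su(Hw) S2 peaks overlapped a Su(Hw) S3 peak, and 88.9% of those on no Rrp40 S2 peak.

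Rrp40 at regions with Su(Hw) recurred less in S3. Rrp40 S3 was present at 32.7% of the 107 (interval 24.0 to 42.5%) and at 50.4% of the 1035 without Su(Hw) (47.3 to 53.5%). Rrp6 S3 was present at 30.8% (22.3 to 40.5%) and 42.1% (39.1 to 45.2%), whose intervals overlap. For Rrp40 peaks with Rrp6 the presence of Su(Hw) went with no lower recurrence, at 79.6 and 78.9% for Rrp40 S3. The 107 regions were narrower, with a median of 2076 bp against 2166 bp. Among those of at least 1900 bp the Rrp40 S3 shares were 43.2% (32 of 74) and 56.9% (509 of 895), whose intervals of 31.8 to 55.3% and 53.6 to 60.1% overlap. The Rrp6 S3 shares were then 40.5% (29.3 to 52.6%) and 46.9% (43.6 to 50.3%), which overlap as well.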

How the data were processed

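The authors' peak lists give chromosome, start and end on the dm3 build and no score or other value, as deposited. The submitters' processing notes name Bowtie 0.12.7 and Picard. No source used here names the peak caller or its threshold. Per the labels, both technical replicates of Rrp6, and of Rrp40, point to 1 list per cell line, so how they were combined is unknown. Read depth is unknown, so each share has only an exact (Clopper-Pearson) 95% binomial interval. Starts were converted to count from 1. Overlap meant at least 1 shared bp. It was computed with numpy 2.4.6, pandas 2.3.3 and scipy 1.17.1, tested on simulated intervals, and the number of regions was checked with bedtools 2.31.1. The RNA tables, 12 in number, were not used: they name genes without coordinates, and no annotation or sequence of dm3 was at hand, so regions are given by position, without genes or bases. Named regions follow a rule by width, gap and overlap. The members, rules and comparisons were chosen with earlier results of these data known. The 3R and X grouping, the limit of 1900 bp and the setting without 3R were chosen after seeing the data. No significance test was run.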

Additional observations from a re-analysis of the deposited data

How the results depend on the processing

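The number of regions, their median width, their median gap to Rrp6 and their overlaps with Rrp40 S3, Rrp6 S3 and Su(Hw) S2 were recomputed under 10 settings, 2 of them chosen after seeing the data. Of the 54 values, 42 stayed within a set limit. For the number of regions it was 1.5 times the count, and for the other results the 95% interval, which is tighter. Counting Rrp6 only where it covered 50% of the Rrp40 peak gave 1322 regions, inside the looser limit, and a median gap of 4308.5 bp. Counting it within 1000 bp gave 1002 regions, also inside that limit, and a median gap of 7211.5 bp. These shifts follow from how those settings pick regions. At or above the median Rrp40 width, 386 regions remained, of median 2605 bp, with Rrp40 S3 at 59.3% and Rrp6 S3 at 51.8%. From 1900 bp up (chosen after seeing the data) the median was 2229 bp, Rrp40 S3 55.8%, Rrp6 S3 46.4% and Su(Hw) S2 7.64%. With 500 bp of slack Rrp6 S3 came to 44.2%, and with 50% of the region covered Su(Hw) S2 came to 6.57%. In 5 alternatives run on both groups (these 2 width limits, no heterochromatic or unplaced sequence, peaks merged within 200 bp, no 3R) the regions without Rrp6 stayed below the peaks with it in all 4 overlaps. For Su(Hw) S3 the margins were small, from 8.21 against 8.63% with merged peaks to 6.48 against 8.53% at or above the median width. Its main shares, 7.97 and 8.55%, have overlapping intervals, and the alternatives share most of their peaks. The repeated order therefore neither shows nor excludes a difference for Su(Hw) S3. Alternatives on genes at the regions were not run, since no dm3 annotation was at hand. No paired analysis was possible because each list joins its replicates, which also prevented leaving one out. Missed Rrp6 peaks of low enrichment cannot be told apart from absent Rrp6 without read depth.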
